A study of Homo sapiens with 12 samples.

Results

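The mRNAs described here encode the core of the mTOR pathway, namely the kinase MTOR, its partners MLST8, RPTOR, AKT1S1 and RICTOR, the upstream regulators TSC1, TSC2 and RHEB, and the substrates RPS6KB1 and EIF4EBP1. These 10 genes were chosen by name, as subunits, regulators or substrates of the complexes, and not by a rule on their values. Earlier results of these data were known when they were chosen. All 10 were among the 59385 gene names of the count table, and all 10 were among the 18166 names that passed the filter on low counts. They were followed in total RNA and in polysome-associated RNA of HEK293T cells, an established line of human embryonic kidney origin. One derived line carried a doxycycline (Dox)-inducible shRNA against PRRC2B, an RNA-binding protein (shPRRC2B), and the other a Dox-inducible shRNA without a target (shCtrl). Both lines received Dox for 36 h, and both were stable lines grown from single clones, so that the shRNA and the clone cannot be told apart. The 4 groups of line and fraction held 3 biological replicates each, 12 libraries in all. For the polysome-associated RNA, fractions 6 to 10 of a sucrose gradient were pooled, and polyadenylated RNA was used for every library. The question was how PRRC2B knockdown altered the abundance of each mRNA and its share on polysomes, expressed as translation efficiency (TE), the polysome-to-total RNA ratio.

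mTOR is a serine/threonine kinase that works in 2 complexes. mTORC1, defined by RPTOR, drives protein synthesis and growth when nutrients and growth factors are present, and mTORC2, defined by RICTOR, phosphorylates AKT and related kinases. TSC1 and TSC2 form a GTPase-activating complex that switches off the small GTPase RHEB, which activates mTORC1 at the lysosome. mTORC1 phosphorylates S6 kinase 1, the product of RPS6KB1, and 4E-BP1, the product of EIF4EBP1. Unphosphorylated 4E-BP1 binds the cap-binding factor eIF4E and blocks translation initiation, which makes these proteins regulators of the process that polysome sequencing measures. Only mRNA was measured here, neither protein nor phosphorylation.

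Levels are given as CPM, counts relative to the size of the library as edgeR's TMM method estimates it from the 12 libraries together, and per kilobase (kb) of transcript wherever genes are compared. Changes are log2 values with their standard errors (SE) from 1 fit of edgeR's quasi-likelihood model. Adjusted p values come from that model with Benjamini-Hochberg adjustment over all 18166 names tested. A gene is said to have risen or fallen, or to be TE-up or TE-down, when the adjusted p was under 0.05 and the log2 change was beyond 0.5 in either direction (above 0.5, or below -0.5). Total RNA libraries held 9855734 to 20837542 counts and polysome libraries 12434157 to 15794787. In total RNA PRRC2B itself stood at 281 ± 28.7 CPM in shCtrl and at 100.3 ± 2.32 CPM in shPRRC2B cells (SD, n = 3 each), which is -1.49 on the log2 scale (SE 0.17, edgeR adjusted p = 4.25e-06). Of the markers of this line, NEFM, NEFL, INA, LIN28B, IGF2BP1 and PAX2 were detected in every library. PTPRC, PECAM1, ALB, INS and MYH6, which mark other cell types, had at most 5 counts in any library, while the collagen gene COL1A1 stood at 14.6 to 34.0 CPM in total RNA. A lower level of an mRNA in such bulk libraries can come from fewer cells with it or from less of it per cell. These cannot be told apart.

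The bases around the start codon, the place where initiating ribosomes settle, are shown for 9 of the mRNAs, with 9 bases before and 6 after it, since TE bears on how often ribosomes begin there. They were read from the canonical transcripts of GENCODE 44 on GRCh38, and capitals mark the start codon.
MTOR: cagggcaagATGcttgga
MLST8: ggccacaccATGaacacc
RPTOR: cccccactgATGgagtcc
AKT1S1: agggcgcggATGgcgtcg
RICTOR: cccgtcaatATGgcggcg
TSC1: agcgagagaATGgcccaa
TSC2: tggtccaccATGgccaaa
RHEB: gccgccaagATGccgcag
RPS6KB1: tccgggcccATGaggcga
An A or G at the third base before the start codon and a G right after it mark the favoured initiation context. The first was present in 6 of these 9 mRNAs, and in 86.1% of 19490 canonical coding transcripts. The second was present in 5 of the 9 and in 51.5% of all. RICTOR, TSC1 and TSC2 had both, as had 43.8% of all. RPS6KB1, which encodes S6 kinase 1, had neither. At least 1 further ATG lay in the 5′ UTR of 6 of the 10 mRNAs, against 43% of all canonical transcripts, with 6 in RPTOR, 3 each in TSC1 and RHEB, 2 in AKT1S1 and 1 each in MLST8 and RPS6KB1.

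The 10 mRNAs split into a class that was rich in polysome RNA and a class that was poor in it. In shCtrl cells the log2 polysome-to-total ratio was above 0 for EIF4EBP1 (3.62, SE 0.27), RHEB (2.58, SE 0.12), MLST8 (2.03, SE 0.13) and AKT1S1 (0.90, SE 0.13). It was below 0 for TSC1 (-1.42, SE 0.15), TSC2 (-2.21, SE 0.15), RPTOR (-2.38, SE 0.19), RICTOR (-2.68, SE 0.22) and MTOR (-3.20, SE 0.16). RPS6KB1 was between the classes at -0.22 (SE 0.15, edgeR adjusted p = 0.193). That made 4 genes called higher and 5 called lower in polysome than in total RNA, while 32.5% of all names tested were called higher and 39.8% lower. EIF4EBP1 was at the 97.9th percentile of all names tested and MTOR at the 7.0th. In shPRRC2B cells 4 were called higher and 6 lower, RPS6KB1 now among them at -0.94 (SE 0.15), beside a background of 36.6% higher and 42.3% lower.

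**Figure D1:**
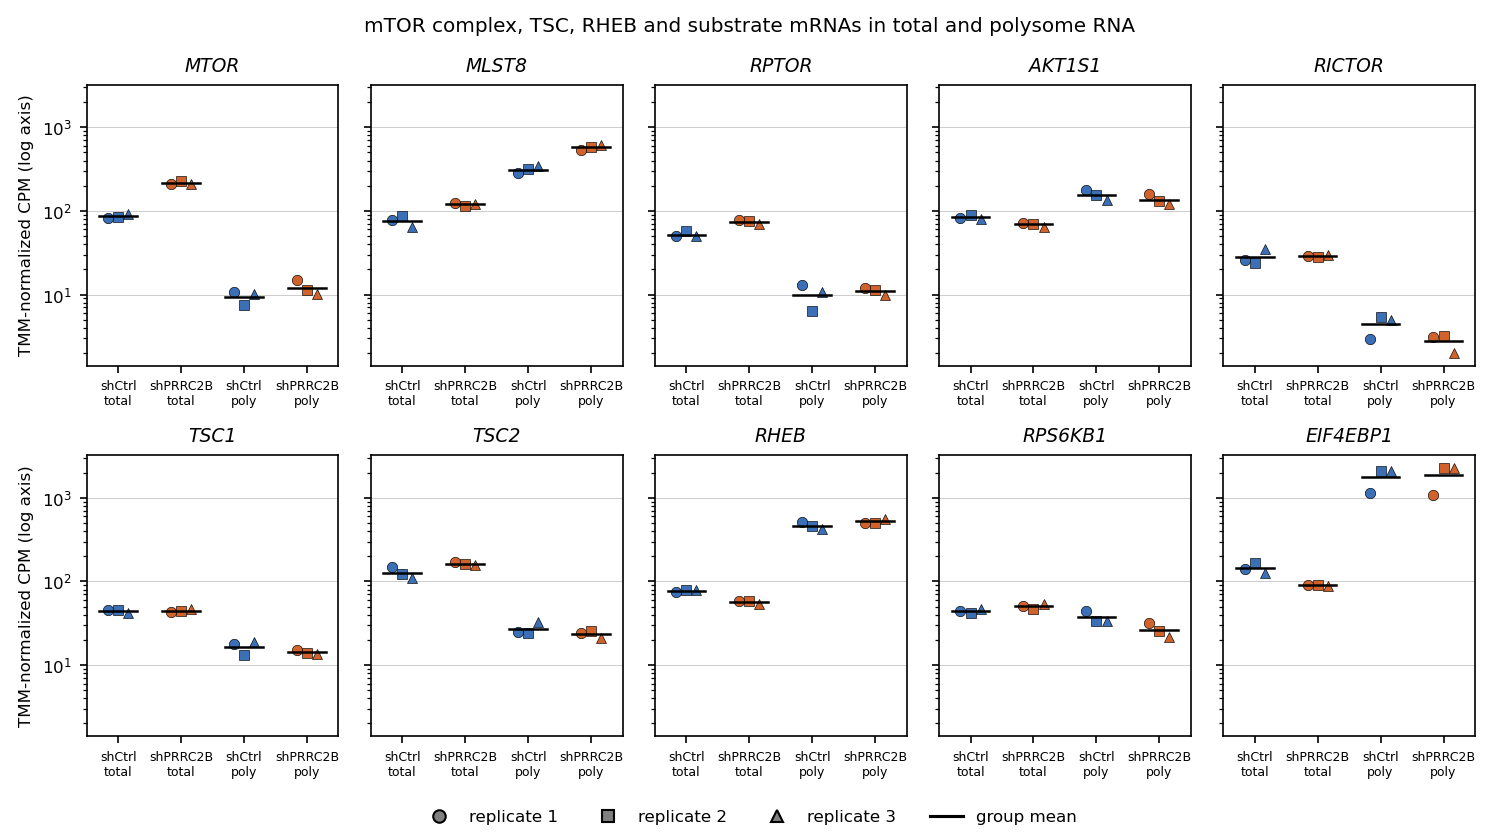
TMM-normalized CPM (log axis) of the 10 mRNAs in total and polysome (poly) RNA, with 1 point per library, shCtrl in blue, shPRRC2B in orange, the symbol giving the replicate number and the bar the group mean. MTOR total RNA is 81.6 to 92.9 CPM in shCtrl and 211 to 227 CPM in shPRRC2B cells, and both polysome replicate 1 libraries are low for EIF4EBP1.

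These ratios are relative to the other mRNAs of a library, because the libraries hold no measure of how much RNA the polysomes contained. Scaling by library totals in place of TMM moved the median ratio of all names by -0.996 in shCtrl and by -0.94 in shPRRC2B cells. The share of called names that were higher went from 45% to 23.1% in shCtrl and from 46.4% to 29.6% in shPRRC2B cells. Under that scaling AKT1S1 was at -0.10 in shCtrl cells and RPS6KB1 was called lower at -1.22, while the other 8 kept their call and direction. In shPRRC2B cells AKT1S1 was then at 0.05 and no longer called. A library scaling shifts the ratios of all genes alike, and leaves their order in place.

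The sign of the ratio followed transcript length. The 4 mRNAs above 0 had canonical transcripts of 827 nt (EIF4EBP1), 1671 nt (MLST8), 1775 nt (AKT1S1) and 2046 nt (RHEB), and the 6 below 0 had 5428 nt (RPS6KB1), 6415 nt (TSC2), 6838 nt (RPTOR), 8598 nt (TSC1), 8721 nt (MTOR) and 9533 nt (RICTOR). Over the 10 genes the log2 ratio in shCtrl cells and log2 length had a Pearson r of -0.95 and a Spearman rho of -0.92, and in shPRRC2B cells -0.95 and -0.90. Over the 15762 tested names with a known length the values were -0.45 and -0.56 in shCtrl and -0.53 and -0.61 in shPRRC2B cells. None of the 10 lay between 2046 and 5428 nt, and their r includes this step. Within the short and within the long mRNAs the order departed in part from length. In shCtrl cells RHEB (2.58) was above MLST8 (2.03), and TSC1 (-1.42) above TSC2 (-2.21). With the length trend of each library taken out, 4 were again called higher and 4 lower in shCtrl cells, against 28.7% and 33.1% of all names. RPS6KB1 was then called higher at 0.83, while AKT1S1 (-0.13) and TSC1 (0.16) were not called. The points share their libraries, and neither genes nor ratios of the same libraries are independent.

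**Figure D2:**
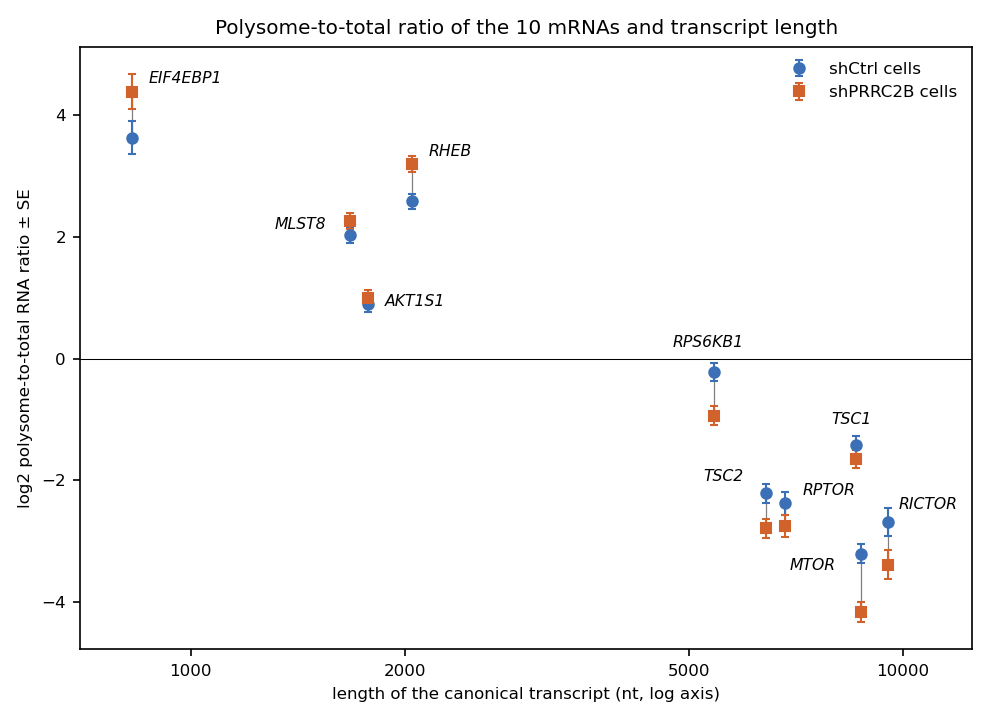
Log2 polysome-to-total RNA ratio ± SE of each mRNA (vertical axis) against the length of its canonical transcript in nt (log axis), in shCtrl (blue circles) and shPRRC2B cells (orange squares), with a line joining the same gene. The 4 mRNAs of 827 to 2046 nt lie above 0 and the 6 of 5428 to 9533 nt below 0 in both lines.

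Per kb of transcript, EIF4EBP1 was the most abundant of the 10 and RICTOR the least abundant in each of the 4 groups. In total RNA of shCtrl cells EIF4EBP1 stood at 174 ± 24.0 CPM per kb (SD, n = 3), followed by AKT1S1 (47.1 ± 2.94), MLST8 (45.7 ± 6.62), RHEB (37.9 ± 1.57), TSC2 (19.7 ± 3.25), MTOR (9.94 ± 0.66), RPS6KB1 (8.10 ± 0.43), RPTOR (7.64 ± 0.64), TSC1 (5.19 ± 0.29) and RICTOR (2.95 ± 0.60). The ranges of AKT1S1 and MLST8, of MLST8 and RHEB, and of RPS6KB1 and RPTOR overlapped, so that these neighbours could not be ordered. In total RNA of shPRRC2B cells MLST8 (72.0 ± 2.72 CPM per kb) was above AKT1S1 (38.8 ± 2.10) with no overlap, and MTOR (24.9 ± 1.04) overlapped TSC2 (25.4 ± 0.75). Between the mTORC1-defining and the mTORC2-defining subunit, RPTOR was the more abundant in both lines, at 10.9 ± 0.63 against 3.02 ± 0.07 CPM per kb in shPRRC2B cells. On polysomes EIF4EBP1 reached 2149 ± 667 CPM per kb in shCtrl and 2267 ± 827 in shPRRC2B cells. RICTOR was at 0.46 ± 0.14 and 0.29 ± 0.07 CPM per kb there, which rested on 21 to 49 counts a library.

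MTOR, the kinase, lies on chromosome 1 (GRCh38, 11106535 to 11262556, minus strand, ENSG00000198793.14, 58 exons), with its start codon at 11259407 to 11259409. Its total RNA was at 81.6, 85.5 and 92.9 CPM in shCtrl replicates and at 211, 227 and 212 CPM in shPRRC2B replicates. Every shPRRC2B library was above every shCtrl library, by more than the whole spread within a line. The rise was 1.32 on the log2 scale (SE 0.14, edgeR adjusted p = 2.30e-06), a fold of 2.50 and the 95.4th percentile of all names. On polysomes MTOR was at 10.6, 7.49 and 10.1 CPM in shCtrl and at 14.8, 11.5 and 10.1 CPM in shPRRC2B cells. These groups overlapped, and the polysome change of 0.37 (SE 0.17, edgeR adjusted p = 0.0853) did not pass. Total RNA of MTOR thus rose without a called rise on polysomes, and MTOR was TE-down at -0.96 (SE 0.22, edgeR adjusted p = 0.00377). Its TE was called without each of the 12 libraries in turn, from -1.19 to -0.87. With each library's trend of counts on transcript length taken out, the TE change was -0.33 (edgeR adjusted p = 0.258) and was not called, the polysome change was 0.84 (edgeR adjusted p = 3.19e-04) and was called, and the total RNA rise was 1.17 and was called. The exons of MTOR share 220 nt with MTOR-AS1 and 151 nt with ANGPTL7 on the other strand, and no strand setting is stated for the counting.

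MLST8, the small beta-propeller subunit found in both complexes, lies on chromosome 16 (2204248 to 2209453, plus strand, ENSG00000167965.18, 9 exons), with its start codon at 2206086 to 2206088. It was at 77.8, 86.8 and 64.7 CPM in total RNA of shCtrl cells and at 124, 115 and 122 CPM in shPRRC2B cells. On polysomes it was at 282, 315 and 340.4 CPM in shCtrl and at 535, 578 and 611 CPM in shPRRC2B cells. The lines did not overlap in either fraction, with shPRRC2B higher in both. MLST8 rose by 0.65 in total RNA (SE 0.13, edgeR adjusted p = 9.76e-04) and by 0.88 on polysomes (SE 0.13, edgeR adjusted p = 3.87e-05), and both rises were called without each of the 12 libraries. With the length trend removed they were 0.72 and 0.55 and were called, but the polysome rise missed the limit when the length curve was centred on its median (0.4985). Its TE change of 0.23 (SE 0.18, edgeR adjusted p = 0.381) did not pass. It was the only one of the 10 called higher on polysomes. Its exons share 201 nt with BRICD5 on the other strand.

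RPTOR, the scaffold that brings substrates to mTORC1, lies on chromosome 17 (80544819 to 80966371, plus strand, ENSG00000141564.16, 34 exons), with its start codon at 80545630 to 80545632. Total RNA of RPTOR was at 49.9, 57.3 and 49.5 CPM in shCtrl and at 77.9, 75.5 and 69.6 CPM in shPRRC2B cells, with no overlap. The rise of 0.51 (SE 0.17, edgeR adjusted p = 0.0256) lay just past the limit, and it was called in 2 of the 12 fits that left out a library (0.46 to 0.58) and lost under 11 of 15 other settings. On polysomes RPTOR was at 12.9, 6.29 and 10.8 CPM in shCtrl and at 11.9, 11.5 and 9.80 CPM in shPRRC2B cells, groups that overlapped. Its TE change was -0.37 (SE 0.26, edgeR adjusted p = 0.311), and of all settings tried it was called only without shCtrl polysome replicate 2, the lowest of the 6 polysome libraries for this gene (-0.67, edgeR adjusted p = 0.0261).

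AKT1S1 encodes PRAS40, an mTORC1-bound inhibitor that AKT phosphorylates, and lies on chromosome 19 (49869033 to 49878459, minus strand, ENSG00000204673.11, 5 exons), with its start codon at 49873293 to 49873295. Its total RNA was at 82.5, 89.3 and 79.1 CPM in shCtrl and at 72.0, 69.7 and 64.7 CPM in shPRRC2B cells. The shPRRC2B libraries were all lower, but the change of -0.28 (SE 0.13, edgeR adjusted p = 0.103) did not pass. On polysomes it was at 176, 155 and 135 CPM in shCtrl and at 158, 132 and 120.1 CPM in shPRRC2B cells, which overlapped, and its TE change was 0.10 (SE 0.18, edgeR adjusted p = 0.744). Its exons share 79 nt with TBC1D17 on the other strand.

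RICTOR, which defines mTORC2, lies on chromosome 5 (38937920 to 39074402, minus strand, ENSG00000164327.14, 38 exons), with its start codon at 39074375 to 39074377. In total RNA it was at 25.8, 24.0 and 34.7 CPM in shCtrl and at 28.6, 28.2 and 29.5 CPM in shPRRC2B cells, a change of 0.04 (SE 0.19, edgeR adjusted p = 0.899) with overlapping groups. On polysomes it was at 2.90, 5.32 and 4.99 CPM in shCtrl and at 3.10, 3.15 and 2.00 CPM in shPRRC2B cells. shCtrl replicate 1 lay within the shPRRC2B range, and the other shCtrl libraries above it. The TE change was -0.70 (SE 0.33, edgeR adjusted p = 0.125) and the polysome change -0.66 (SE 0.27, edgeR adjusted p = 0.0535), and neither passed. Without shCtrl polysome replicate 1 the TE change was -0.98 (edgeR adjusted p = 0.0193) and RICTOR was TE-down. The polysome change was called lower in 4 of the 12 fits that left out a library. The kinase shared by both complexes thus rose in total RNA, the mTORC1-defining subunit rose at the edge of the limit, and the mTORC2-defining subunit did not pass in either direction. The differences between these genes were not tested.

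TSC1, or hamartin, stabilizes TSC2 and lies on chromosome 9 (132891348 to 132946874, minus strand, ENSG00000165699.15, 23 exons), with its start codon at 132928870 to 132928872. Its total RNA was at 46.0, 46.1 and 41.8 CPM in shCtrl and at 43.1, 43.9 and 47.3 CPM in shPRRC2B cells, a change of 0.00 (SE 0.14, edgeR adjusted p = 0.989). On polysomes it was at 18.1, 13.1 and 18.7 CPM in shCtrl and at 15.3, 13.9 and 13.4 CPM in shPRRC2B cells. The groups overlapped in both fractions, and neither the polysome change (-0.23, SE 0.15) nor the TE change (-0.23, SE 0.20, edgeR adjusted p = 0.433) passed.

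TSC2, or tuberin, carries the GTPase-activating domain and lies on chromosome 16 (2047967 to 2089491, plus strand, ENSG00000103197.19, 42 exons), with its start codon at 2048616 to 2048618. TSC2 in total RNA was at 149.5, 121 and 109 CPM in shCtrl and at 168, 162 and 159 CPM in shPRRC2B cells. The shPRRC2B libraries were all higher, and the change of 0.37 (SE 0.14, edgeR adjusted p = 0.0507) stood at the limit without passing, and was called without shCtrl total replicate 1 (0.50, edgeR adjusted p = 0.0264). On polysomes TSC2 was at 24.6, 24.4 and 32.9 CPM in shCtrl and at 24.1, 25.5 and 21.3 CPM in shPRRC2B cells, which overlapped. TSC2 was TE-down at -0.57 (SE 0.21, edgeR adjusted p = 0.0477). This call was lost in 7 of the 12 fits that left out a library (without shCtrl polysome replicate 3, shCtrl total replicates 2 or 3, shPRRC2B polysome replicate 3, or any shPRRC2B total library; range over all 12 -0.72 to -0.48), with a block for the replicate number (edgeR adjusted p = 0.0607) or the culture (edgeR adjusted p = 0.0749), with library totals (-0.51, edgeR adjusted p = 0.0749) and with the length trend removed (-0.08, edgeR adjusted p = 0.825). Its exons share 784 nt with PKD1 on the other strand.

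RHEB, the GTPase that TSC2 inactivates and that activates mTORC1, lies on chromosome 7 (151466012 to 151520120, minus strand, ENSG00000106615.10, 8 exons), with its start codon at 151519509 to 151519511. Its total RNA was at 73.9, 79.8 and 79.1 CPM in shCtrl and at 58.7, 59.1 and 53.6 CPM in shPRRC2B cells. The groups did not overlap, and the change of -0.44 (SE 0.12, edgeR adjusted p = 0.00855) had an adjusted p under 0.05 but did not reach the fold limit. On polysomes RHEB was at 508, 458 and 423 CPM in shCtrl and at 494, 505 and 565 CPM in shPRRC2B cells, which overlapped, with a change of 0.17 (SE 0.12, edgeR adjusted p = 0.250). RHEB was TE-up at 0.61 (SE 0.17, edgeR adjusted p = 0.0118), the only one of the 10. Its 3 same-numbered ratios of polysome to total CPM were 6.88, 5.74 and 5.35 in shCtrl and 8.43, 8.55 and 10.5 in shPRRC2B cells and did not overlap. The same held, with shPRRC2B lower, for MTOR, TSC2 and RPS6KB1, and narrowly for RICTOR, which was not called in TE. For RICTOR the lowest shCtrl ratio was 0.1123 and the highest shPRRC2B ratio 0.1117, a gap that depends on the matching by number. No share over all names is given for such ratios, and no pairing of libraries by number was seen. The TE-up call of RHEB was lost when shCtrl polysome replicate 3 was left out (0.49), as it was with the length trend removed (0.33, edgeR adjusted p = 0.149).

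RPS6KB1, the S6 kinase that phosphorylates ribosomal protein S6, lies on chromosome 17 (59893046 to 59950574, plus strand, ENSG00000108443.14, 15 exons), with its start codon at 59893185 to 59893187. Its total RNA was at 43.8, 41.7 and 46.4 CPM in shCtrl and at 50.6, 47.3 and 54.3 CPM in shPRRC2B cells, a change of 0.21 (SE 0.15, edgeR adjusted p = 0.302). On polysomes it was at 44.9, 34.0 and 34.1 CPM in shCtrl and at 32.1, 25.4 and 21.8 CPM in shPRRC2B cells. All shPRRC2B polysome libraries were lower, the highest of them close under the lowest shCtrl library. RPS6KB1 fell by 0.51 on polysomes (SE 0.16, edgeR adjusted p = 0.0136), the only one of the 10 called lower there, and it was TE-down at -0.72 (SE 0.22, edgeR adjusted p = 0.0204). The polysome call was lost without shCtrl polysome replicate 1 (-0.45) or shPRRC2B polysome replicate 3 (-0.47) and under 8 of 15 other settings. The TE call was lost without shCtrl total replicate 2 (-0.68), shPRRC2B polysome replicate 3 (-0.63) or shPRRC2B total replicate 3 (-0.67), and with the length trend removed (-0.34, edgeR adjusted p = 0.246).

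EIF4EBP1, which encodes 4E-BP1, lies on chromosome 8 (38030534 to 38060365, plus strand, ENSG00000187840.5, 3 exons). In total RNA it was at 139.7, 166 and 127 CPM in shCtrl and at 91.1, 91.3 and 87.5 CPM in shPRRC2B cells. The shPRRC2B libraries were all lower, and EIF4EBP1 fell by 0.68 (SE 0.25, edgeR adjusted p = 0.0421), the only one of the 10 called lower in total RNA. That call was lost without any 1 of the 6 total RNA libraries (-0.77 to -0.57 over all fits), by limma (-0.67, adjusted p = 0.065) and with the length trend removed (-0.48, edgeR adjusted p = 0.123). On polysomes EIF4EBP1 was at 1140.5, 2111 and 2081 CPM in shCtrl and at 1085, 2284 and 2255 CPM in shPRRC2B cells. Replicate 1 was the low library in both lines, at about the same level, and the groups overlapped. The TE change was 0.76 (SE 0.35, edgeR adjusted p = 0.119) and did not pass. With both polysome replicate 1 libraries left out, an alternative chosen after these values were seen, the TE change was 0.75 (edgeR adjusted p = 7.09e-04) and EIF4EBP1 was TE-up. Without shPRRC2B polysome replicate 1 alone it was 0.97 (edgeR adjusted p = 0.0129).

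Counted over the 10 genes, total RNA rose for 3 (MTOR, MLST8, RPTOR) and fell for 1 (EIF4EBP1), where 14.9% of all names tested rose and 14.1% fell. The lines did not overlap for 5 genes that were higher in shPRRC2B cells and for 3 that were lower, against 34.1% and 28.8% of all names. On polysomes 1 gene rose and 1 fell, against 18.4% and 21.4%, and the same 2 genes were the ones whose lines did not overlap, against 21.6% and 21.5%. In TE 1 gene was up (RHEB) and 3 were down (MTOR, TSC2, RPS6KB1), against 10.7% and 16.4%. With 10 genes, each of these counts lies within 2 genes of the background share. The median change of the 10 was 0.12 in total RNA, -0.05 on polysomes and -0.30 in TE, beside medians over all names tested of 0.04, -0.01 and -0.03. These 3 comparisons share their libraries. With both polysome replicate 1 libraries left out, EIF4EBP1 and RHEB were TE-up and MTOR, RICTOR, TSC2 and RPS6KB1 TE-down, where 14.9% of 18813 names tested were TE-up and 22% TE-down.

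Among the 10, the TE change separated the short mRNAs from the long ones. Over the 10 genes it had a Pearson r of -0.89 and a Spearman rho of -0.77 with log2 transcript length, and over the 15762 names with a known length -0.31 and -0.41. All 4 mRNAs of 827 to 2046 nt had a TE change above 0, and all 6 of 5428 to 9533 nt one below 0. None of the 10 lay between 2046 and 5428 nt, and the r includes this step. Within the 6 long mRNAs the TE change did not follow the order of length, at -0.72 for RPS6KB1 (5428 nt), -0.23 for TSC1 (8598 nt) and -0.96 for MTOR (8721 nt). Nor did it within the 4 short ones, at 0.23 for MLST8 (1671 nt) and 0.61 for RHEB (2046 nt). With the length trend of each library removed, 0 of the 10 were TE-up and 0 TE-down by edgeR's test, where 8.67% of all names were TE-up and 12.9% TE-down. At an unadjusted p under 0.05 the counts were 0 and 0 as well. In that fit the lowest adjusted p among the 10 was 0.149 (RHEB, edgeR), and 0 of the 10 were called in TE with the length curve centred on its median or not centred either. The same fit called MTOR, MLST8 and RPTOR (0.52) higher on polysomes and none lower, against 16.7% and 19.7% of all names, while with the curve centred on its median MTOR alone was called higher (0.79) and AKT1S1 alone lower (-0.52). In total RNA it called MTOR and MLST8 higher and none lower, against 13.6% and 14%. At an unadjusted p under 0.05, 1 gene was lower on polysomes (AKT1S1, -0.48) and 1 in total RNA (RHEB, -0.40). Their edgeR adjusted p of 0.00914 and 0.0121 passed too, and only the fold limit was missed.

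**Figure D3:**
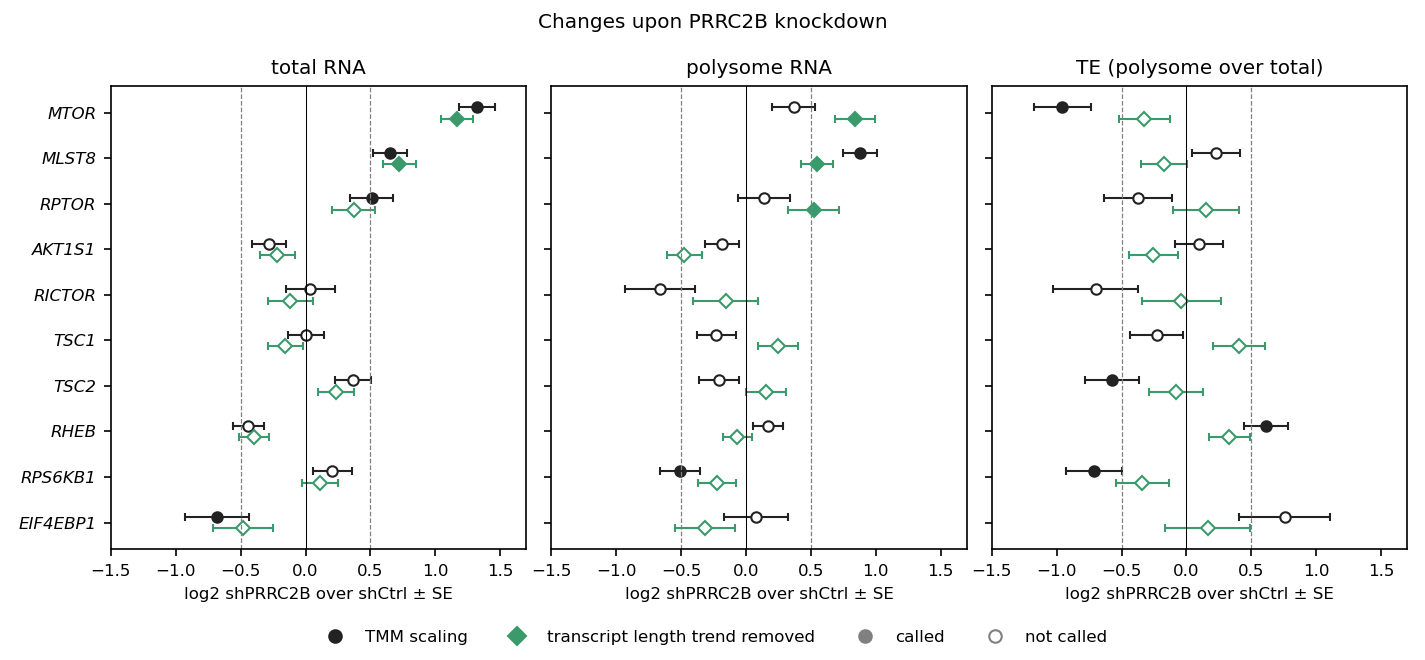
Log2 change ± SE from shCtrl to shPRRC2B of each mRNA in total RNA, polysome RNA and TE, with TMM scaling (black circles) and with the transcript length trend removed (green diamonds). Filled symbols were called (adjusted p under 0.05 and past the dashed lines at -0.5 and 0.5). MTOR and MLST8 are called in total RNA under both, and the 4 TE calls are made with TMM scaling alone.

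The wider pathway was read from a list of 85 further genes, of which 82 were tested. CASTOR1, PIK3R2 and EIF4EBP3 did not pass the filter, with at most 9, 13 and 24 counts in a library. Of these 82 genes, 4 were TE-up and 16 TE-down, or 4.88% and 19.5% beside the background of 10.7% and 16.4%, with a median of -0.20. Total RNA rose for 11 (13.4%) and fell for 14 (17.1%), beside 14.9% and 14.1% of all names, with a median of 0.10. On polysomes 9 rose (11%) and 22 fell (26.8%), beside 18.4% and 21.4%, with a median of -0.12. With both polysome replicate 1 libraries left out 9 of the list were TE-up and 26 TE-down, beside 14.9% and 22% of all names. With the length trend removed 5 were TE-up and 8 TE-down, beside 8.67% and 12.9%, of which 1 and 6 were called with TMM scaling too.

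In the nutrient-sensing arm (Rag GTPases, Ragulator, GATOR, KICSTOR, folliculin and amino acid sensors), 3 of 30 genes tested were TE-up (10%) and 6 TE-down (20%), beside 10.7% and 16.4% of all names, with a median of -0.28. LAMTOR5, a subunit of the Ragulator scaffold, had the highest TE change of this arm, 0.87 (SE 0.23, edgeR adjusted p = 0.0111). Its total RNA fell from 42.6 ± 1.30 to 27.5 ± 1.65 CPM (SD, n = 3), and on polysomes it stood at 495 ± 137 CPM in shCtrl and 584 ± 87.5 CPM in shPRRC2B cells. With the length trend removed its TE change was 0.29 and was not called. SLC38A9, a lysosomal arginine sensor, had the lowest, -1.46 (SE 0.28, edgeR adjusted p = 0.00106). Total RNA of SLC38A9 rose from 13.2 ± 0.85 to 21.5 ± 0.55 CPM while polysome RNA decreased from 19.8 ± 5.99 to 11.7 ± 2.34 CPM, with SD over 3 libraries. It was TE-down with the length trend removed as well (-1.62).

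In the growth factor and energy arm (insulin receptor substrates, PI3K, AKT, LKB1 and AMPK), 1 of 20 genes tested was TE-up (5%) and 4 TE-down (20%), beside the same 10.7% and 16.4%, with a median of -0.34. PIK3CA, the catalytic PI3K subunit p110 alpha, had the lowest TE change, -1.16 (SE 0.27, edgeR adjusted p = 0.00428), with total RNA at 13.4 ± 1.25 CPM in shCtrl and 21.3 ± 2.00 CPM in shPRRC2B cells (SD, n = 3) and polysome RNA at 5.93 ± 0.99 and 4.25 ± 0.70 CPM. With the length trend removed it was -0.51 (edgeR adjusted p = 0.196).

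Among the other subunits, assembly factors and inhibitors of the complexes, 0 of 12 were TE-up and 1 (8.33%) was TE-down by edgeR's test, beside 10.7% and 16.4% of all names, with a median of 0.09. At an unadjusted p under 0.05, 1 was higher by edgeR and 1 by DESeq2, and limma called 1 TE-up. MAPKAP1, which encodes the mTORC2 subunit SIN1, had a TE change of 0.50 (SE 0.19, edgeR adjusted p = 0.0556), and it was called with library totals (0.56) and with the length trend removed (0.58). PRR5, which encodes the mTORC2 subunit PROTOR1, was at 0.37 (SE 0.31), its relative PRR5L at 1.11 (SE 0.60) as the highest of this list, the inhibitor DEPTOR at -0.09 (SE 0.29), and the TSC subunit TBC1D7 at 0.29 (SE 0.17), and none passed. The value of PRR5L rests on few counts, at most 62 in a library, with group means of 1.02 to 2.08 CPM. TTI2, a co-chaperone for the mTOR kinase family, had the lowest TE change, -0.69 (SE 0.35, edgeR adjusted p = 0.162), while its total RNA rose from 4.97 ± 0.57 to 9.75 ± 0.94 CPM (SD, n = 3). Without shCtrl polysome replicate 1 MAPKAP1 (0.64) and PRR5 (0.73) were TE-up, and without shCtrl polysome replicate 2 PRR5L was TE-up (1.78) and TTI2 TE-down (-1.003).

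Downstream of the complexes, 0 of the 20 tested passed as TE-up and 5 (25%) as TE-down by edgeR's test, beside 10.7% and 16.4% of all names, with a median of -0.31. DESeq2 and limma called 0 TE-up too, and at an unadjusted p under 0.05 the count was 0 by edgeR, 1 by DESeq2 and 0 by limma. EIF4EBP2, which encodes the 4E-BP1 relative 4E-BP2, was among them at -1.20 (SE 0.18, edgeR adjusted p = 1.48e-04). It stood at 134 ± 4.86 CPM in total RNA of shCtrl cells and 161 ± 3.96 CPM in shPRRC2B cells, and on polysomes it fell from 93.4 ± 14.5 to 48.9 ± 4.08 CPM (SD, n = 3), a log2 change of -0.93. The TE changes of EIF4EBP1 (0.76, not called) and EIF4EBP2 had opposite signs, the difference between them was not tested, and their transcripts are 827 and 7491 nt long. EIF4EBP2 was TE-down with the length trend removed as well (-0.62, edgeR adjusted p = 0.0123). LARP1, which binds the mRNAs of ribosomal proteins under mTORC1 control, had the lowest TE change of the list, -1.55 (SE 0.25, edgeR adjusted p = 2.82e-04). On polysomes it fell from 41.1 ± 9.77 to 15.7 ± 3.91 CPM, beside total RNA of 369 ± 12.5 and 415 ± 4.01 CPM (SD, n = 3), and with the length trend removed it was TE-down at -1.01. RPS6KB2, the relative of RPS6KB1, had a TE change of 0.13 (SE 0.19) and rose on polysomes from 277 ± 26.4 to 410.0 ± 64.7 CPM. TFEB, a transcription factor of lysosomal genes that mTORC1 holds in the cytosol, had the highest TE change of this list, 0.50 (SE 0.31, edgeR adjusted p = 0.255), which did not pass, and rose on polysomes from 7.41 ± 1.99 to 12.4 ± 1.85 CPM.

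**Figure D4:**
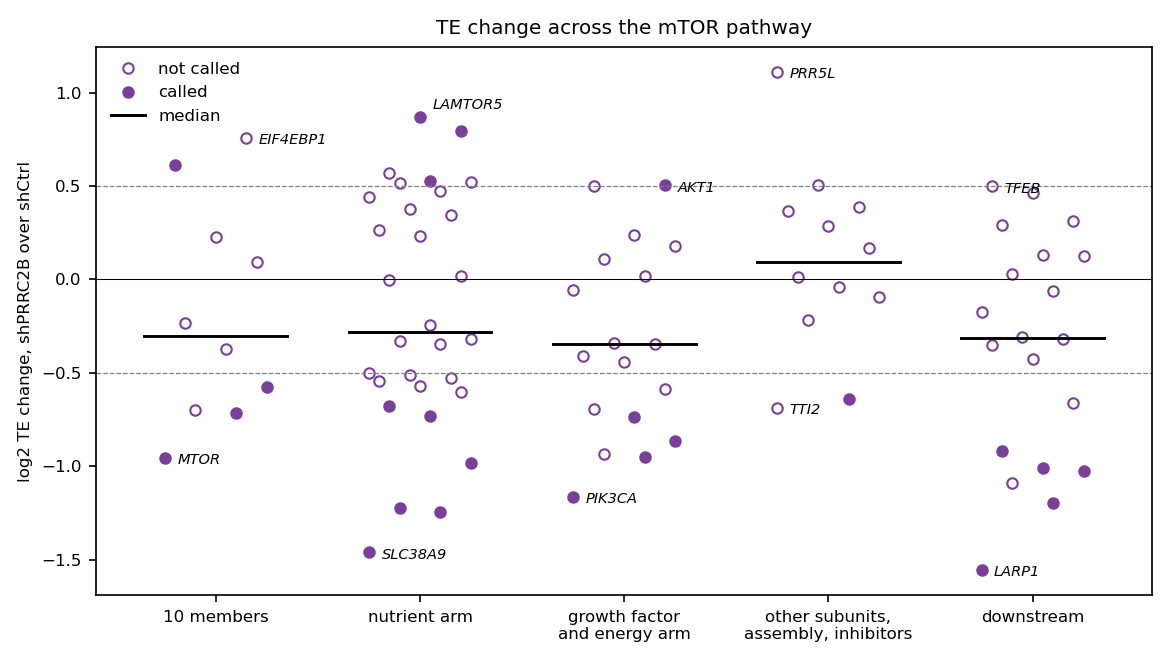
Log2 TE change from shCtrl to shPRRC2B of the 10 mRNAs and of the further pathway genes tested, by list, with 1 point per gene reported here, filled where called, the bar giving the median of all genes of the list tested and dashed lines at -0.5 and 0.5. The highest and lowest points of each list are named, and the medians lie between -0.34 and 0.09.

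The genes whose log2 levels over the 12 libraries were most like those of MTOR were NBR1, CEBPZ and HNRNPR, with Pearson r of 0.9966, 0.9957 and 0.9956. Most like EIF4EBP1 were WDR54, AIG1 and TMEM128, with 0.9985, 0.9963 and 0.9959. As 1315 of 18165 other names had an r over 0.95 with MTOR and 1754 with EIF4EBP1, and the difference between total and polysome RNA carries most of such an r, these neighbours are a description of the libraries and not of shared control.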

How the data were processed

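Total and polysome-associated RNA of both lines was sequenced by the authors. They deposited raw counts of read pairs per gene name, without normalization. The submitters' processing notes name bcl2fastq 2.19.0, Trimmomatic 0.36, HISAT2 2.1.0 and featureCounts of Subread 2.0.1, with GRCh38. The methods give gene names of GENCODE 38 and options that require both ends of a pair to map and leave out chimeric pairs and marked duplicates. They name no option that admits pairs mapping to several places or genes. The table had 0 columns of values of no library and 5 empty columns.

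The main fit of the counts used edgeR 4.0.16 in R 4.3.3 (filterByExpr, minimum count 10, TMM over 12 libraries, glmQLFit and glmQLFTest with 4 groups, no block). Library totals lay between 9855734 and 20837542, and no share of a single library is given, so errors are the SD over replicates or the SE from the fit. 0 pairs of libraries were identical. Thresholds were an adjusted p of 0.05 and log2 changes of 0.5 and -0.5. Transcript lengths and positions came from canonical transcripts of GENCODE 44, with lengths known for 86.8% of names tested. KICS2 was counted under its older symbol, through RefSeq's table of synonyms. On simulated counts, where 195 of 17688 genes tested had a set log2 TE change of 1.5 up or down, the fit called 122 (62.6%) and 7 unchanged genes. The simulated lines were otherwise alike, with no length trend that differed between them, and 1.5 is larger than any TE change of the 10. These counts therefore give neither the sensitivity for the 10 genes nor the rate of false calls in the data.

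The 10 genes and the pathway lists were chosen with earlier results of these data known. Named were the 10, PRRC2B, of each pathway list the tested genes with the highest and lowest TE change (1 result of this kind is not reported here), relatives of the 10, and for MTOR and EIF4EBP1 the 3 genes of highest correlation. Pathway genes outside this rule are named only in the closing section, because they were called.

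Alternatives were DESeq2 1.42.0, its size factors, library totals, TMM within each fraction, names with at least 1 count, names with at least 10 counts in every library, limma 3.58.1 on log2(CPM + 1), the replicate number or the culture within a line as a block, the length trend removed (lowess, span 0.3) without and with the replicate block, no minimum fold, 1 fraction or 1 line alone, each library left out, and, chosen after the data were seen, both polysome replicate 1 libraries left out and the length curve, centred on its mean in each library, centred on its median or not at all.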

Additional observations from a re-analysis of the deposited data

Results flagged for a closer look

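For 4 of the 10 mRNAs the effect of the shRNA line differed between polysome-associated and total RNA, by the interaction term of edgeR's quasi-likelihood model. The difference, which is the log2 TE change, was -0.96 for MTOR, -0.57 for TSC2, 0.61 for RHEB and -0.72 for RPS6KB1. All 4 calls were lost with the length trend removed. The same test also passed for 20 of the 82 further pathway genes (24.4%), beside 27.1% of all names tested.

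Higher in TE upon knockdown were the Ragulator subunits LAMTOR4 (0.79) and LAMTOR5 (0.87), the GATOR2 subunit WDR59 (0.53) and the kinase AKT1 (0.50). Lower in the nutrient arm were SLC38A9 (-1.46), the GATOR2 subunit WDR24 (-0.73), the folliculin partner FNIP2 (-1.25), the sestrins SESN1 (-0.68) and SESN3 (-1.22), and CASTOR2 (-0.98). Lower in the growth factor and energy arm were PIK3CA (-1.16), the LKB1 partner CAB39 (-0.74) and the AMPK subunits PRKAA1 (-0.95) and PRKAB2 (-0.86). The co-chaperone subunit TTI1 was at -0.64. Lower downstream were EIF4EBP2 (-1.20), the helicase cofactor EIF4B (-1.01), the eIF4A inhibitor PDCD4 (-0.92), the elongation factor kinase EEF2K (-1.02) and LARP1 (-1.55). Over the 12 fits that each lacked 1 library, AKT1 and WDR59 were called in 2, SESN1 and CASTOR2 in 4, LAMTOR4 and WDR24 in 5 and CAB39 in 10, and the other 13 pathway genes in all 12. With the length trend removed 13 of the 20 calls were lost, and those of WDR59, SLC38A9, PRKAA1, EIF4EBP2, EIF4B, PDCD4 and LARP1 were made again. A block for the culture ended the calls of WDR59, AKT1 and SESN1, and one for the replicate number that of WDR59.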

How the results depend on the processing

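Depth limits RICTOR most, with 21 to 49 counts in a polysome library. No pairing of the samples by replicate number was seen. Over 18 pairs of libraries with the same number the correlation of deviations was -0.06 to 0.05, 0 of them over 0.1. Over 36 pairs with different numbers it was -0.07 to 0.08. Such values cannot exclude that libraries of the same number came from the same culture. For EIF4EBP1, polysome replicate 1 was low in both lines. With the replicate block TSC2 lost its TE call (-0.58, edgeR adjusted p = 0.0607), as with the block by culture (-0.58, edgeR adjusted p = 0.0749), which made 2 pathway genes TE-up in place of 4.

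The length trend was removed with the curve centred on its mean, also with the replicate block, and, chosen after the data were seen, with the curve centred on its median or not centred. In all 4 fits 0 of the 10 were TE-up, 0 TE-down and 0 lower in total RNA. On polysomes 3 were higher and 0 lower, except with the median, where 1 was higher and 1 lower. Pathway genes TE-down numbered 8, 8, 17 and 6, and TE-up 5, 5, 4 and 8. Of all names called in TE, 40.2%, 33.6% and 48.7% were TE-up with mean, median and no centring, against 39.4% with TMM alone. Directions turned as follows, in the order mean, mean with the replicate block, median and no centring. TE changes became -0.26, -0.26, -0.32 and -0.18 for AKT1S1, -0.17, -0.17, -0.24 and -0.097 for MLST8, 0.15, 0.16, 0.085 and 0.23 for RPTOR, 0.40, 0.41, 0.34 and 0.48 for TSC1, -0.25, -0.25, -0.32 and -0.17 for RPS6KB2 and -0.22, -0.22, -0.28 and -0.14 for TBC1D7, while PRR5 turned with the median (-0.018) and RICTOR without centring (0.039). Polysome changes became -0.32, -0.32, -0.37 and -0.23 for EIF4EBP1, 0.25, 0.25, 0.20 and 0.34 for TSC1, 0.15, 0.15, 0.10 and 0.24 for TSC2 and, in the first 3 fits, -0.067, -0.066 and -0.12 for RHEB. Total RNA changes became -0.12, -0.11, -0.10 and -0.11 for RICTOR and -0.16, -0.16, -0.14 and -0.14 for TSC1. None of these had been called. Ratios in shCtrl cells became -0.13, -0.14, -0.26 and -0.012 for AKT1S1, 0.83, 0.82, 0.70 and 0.95 for RPS6KB1 and 0.16, 0.15, 0.032 and 0.28 for TSC1. Ratios in shPRRC2B cells became -0.38, -0.39, -0.58 and -0.19 for AKT1S1, 0.49, 0.49, 0.30 and 0.69 for RPS6KB1 and 0.57, 0.57, 0.37 and 0.76 for TSC1. Of the ratios, that of RPS6KB1 in shCtrl cells alone had not been called.

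The near-zero total RNA changes of RICTOR and TSC1 turned negative with library totals (-0.041 and -0.070), TMM within each fraction (-0.012 and -0.042), names with at least 1 count (-0.0035 and -0.036) and both polysome replicate 1 libraries left out (-0.0088 and -0.046), and that of TSC1 with at least 10 counts in every library (-0.018) and with 1 fraction alone (-0.042). Library totals reversed the shCtrl ratio of AKT1S1 (-0.10), names with at least 1 count the polysome change of EIF4EBP1 (-0.013), and leaving out both polysome replicate 1 libraries the TE change of DEPTOR (0.040).

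Of the 10, TE-up genes numbered 2 with names of at least 1 count and with both polysome replicate 1 libraries left out. Genes lower in total RNA numbered 2 with library totals and with no minimum fold, and 0 by limma. Genes lower on polysomes numbered 2 by DESeq2, with names of at least 1 count and with both polysome replicate 1 libraries left out, and 0 with TMM within each fraction, at least 10 counts in every library, limma and 1 fraction alone. TE-up pathway genes numbered 8 with TMM within each fraction and with at least 10 counts in every library, and 9, with 26 TE-down, with both polysome replicate 1 libraries left out. The causes were not tested.

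Leaving out 1 library at a time gave 0 to 2 of the 10 TE-up and 1 to 4 TE-down, 0 to 1 lower in total RNA, 0 to 2 lower on polysomes, 1 to 9 pathway genes TE-up and 13 to 23 TE-down. The highest, 9, came without shCtrl polysome replicate 1. Changes that crossed 0 ranged in TE from -0.084 to 0.16 for AKT1S1, from -0.29 to 0.036 for DEPTOR and from -0.021 to 0.19 for RPS6KB2, on polysomes from -0.26 to 0.25 for EIF4EBP1 and from -0.21 to 0.29 for RPTOR, and in total RNA from -0.070 to 0.21 for RICTOR and from -0.046 to 0.032 for TSC1.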

Other observations

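Of the 82 pathway genes tested, 2 rose (2.44%) and 7 fell (8.54%) in both fractions, beside 6.55% and 6.36% of all names tested. Among these 9, the following 4 were chosen after their values were seen. DDIT4, which encodes REDD1, a stress-induced inhibitor of mTORC1 signalling, fell from 245 ± 46.1 to 59.9 ± 6.40 CPM in total RNA (SD, n = 3), a log2 change of -2.03 (SE 0.31, edgeR adjusted p = 1.09e-04). On polysomes it fell from 131 ± 50.3 to 45.4 ± 22.7 CPM, a log2 change of -1.53. Its relative DDIT4L fell by 1.21 in total RNA and by 1.55 on polysomes, at 1.83 to 5.39 CPM. SESN2, a leucine sensor, fell from 76.7 ± 1.38 to 45.3 ± 2.44 CPM in total RNA (-0.76, edgeR adjusted p = 0.0166) and from 54.0 ± 24.3 to 25.4 ± 2.87 CPM on polysomes (-1.09), and its total RNA call was lost when replicate 2 of shCtrl total RNA (-0.75) or replicate 3 of shPRRC2B total RNA (-0.71) was left out. SGK1, a kinase downstream of mTORC2, rose from 2.42 ± 0.84 to 6.04 ± 0.96 CPM in total RNA (1.33, edgeR adjusted p = 0.00462) and from 2.98 ± 0.51 to 7.19 ± 3.38 CPM on polysomes (1.27), the latter lost without shPRRC2B polysome replicate 1 (0.70). The TE changes of the 4 genes did not pass. SESN1, a relative of SESN2, rose by 0.56 in total RNA.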
